A study of Mus musculus with 12 samples.

Results

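The genes described here are 9 transcription factors known from effector and exhausted T cells: Tbx21, Eomes, Prdm1, Irf4, Irf8, Batf, Bach2, Maf and Bhlhe40. They were taken by name from a table of 24421 mouse genes, and all 9 were in it. Their RNA was read in thymocytes of C57BL/6 embryos in 12 libraries, with 2 libraries in each of 6 groups. KO embryos had the genotype Rag1KOBcl6fl/flLckCre+ and control embryos Rag1KOBcl6fl/flLckCre-, so every library lacked Rag1 and carried loxP-flanked Bcl6, and only KO embryos had Cre under the Lck promoter, which is active in T lineage cells. In order of development, the 3 sorted populations were CD25-positive cells of unstimulated thymi, immature single-positive (ISP) cells and double-positive (DP) cells. ISP cells carry CD8 without CD4 and DP cells carry both. ISP and DP cells came from thymi on filters whose culture contained anti-CD3 antibody (1 µg/ml, 2 days), and the CD25 cells were not stimulated, so stage and stimulation cannot be told apart. The sample labels and the treatment protocol include stimulated controls, where the series' design text speaks of treated KO thymi. Presence of Cre and loss of Bcl6 cannot be told apart either, and no label tells if the libraries of a group are from different embryos, so p-values measure the spread between these libraries. The age of the embryos is E16.5 in the sample labels, though the description of the treatment has E17.5.

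In mature lymphocytes these factors set how a stimulated cell differentiates. TBX21 (T-bet) and EOMES are T-box factors of cytotoxic T cells and natural killer (NK) cells. BATF is a small leucine zipper protein that binds DNA with JUN proteins and, on shared elements, with IRF4 or IRF8. BACH2 binds similar elements as a repressor and restrains effector genes. PRDM1 (BLIMP1) is a repressor of terminal effector cells and plasma cells and is the classical antagonist of BCL6. MAF drives IL-10 and other cytokine genes, and BHLHE40 is a repressor of the basic helix-loop-helix type that acts on cytokine and metabolic genes. Thymocytes without Rag1 make no T cell receptor and remain blocked while they carry CD25. CD3 antibody stands in for the missing pre-TCR signal and lets them pass through the ISP to the DP stage.

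Levels are RPKM, reads scaled to the length of the gene and the depth of the library, and differences are of log2(RPKM + 1) with the standard error (SE). Adjusted p-values come from limma with Benjamini-Hochberg adjustment over all genes tested, and a gene is called at an adjusted p under 0.05. Libraries held 9656334 to 14226482 reads recovered from the values. A test took in a gene where 2 or more libraries of its fit reached 1 RPKM. Bcl6 itself was at 2.01 and 1.63 RPKM in KO and 1.82 and 1.49 in control CD25 libraries, at 18.9 and 25.1 in KO and 11.9 and 11.6 in control ISP libraries, and at 87.7 and 111 in KO and 72.5 and 69.95 in control DP libraries. With 1 value per gene, loss of the loxP-flanked part from the RNA cannot be checked. The populations carried their markers: Il2ra, which encodes CD25, was at 537.6 to 603.3 RPKM in CD25 libraries and at most 44.7 elsewhere, and Cd4 was at 13.9 to 20.5 in ISP and 190.6 to 344.1 in DP libraries. Titles and sequencing library names disagree on population or genotype in 6 of the 8 stimulated libraries. Groups follow the titles, and a grouping by library name is given where it bears on a count. Gh, the growth hormone gene, a part of which some Cre transgenes carry, had 8 and 10 reads in KO CD25, 20 and 35 in KO ISP and 59 and 93 in KO DP libraries and 0 in all 6 control libraries, which follows the titles. The Y-linked gene Ddx3y ranged over 0 to 0.0979 RPKM in the 4 stimulated KO libraries and 7.28 to 56.3 in the other 8. The sex of the embryos therefore moved with genotype in ISP and DP cells, and its part in the differences below was not tested. In sorted bulk cells, a change in the number of cells that express a gene and a change in RNA per cell cannot be told apart.

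The factors were weakly expressed, apart from Batf. Batf was at 5.78 to 11.8 RPKM and reached 1 RPKM in all 12 libraries, and 60.1% of the genes above 0 in any library had a lower mean. Irf8 reached 1 RPKM in 9 libraries, Bhlhe40 in 8, Irf4 and Maf in 5 each, Tbx21 in 4 and Bach2 in 2. Prdm1 stayed at 0.0681 to 0.405 RPKM and Eomes at 0 to 0.509, so neither was tested, except without the filter. In all, 7 of the 9 factors were tested across the 12 libraries, and 3 of them (Batf, Irf8 and Bhlhe40) in the fit of the 4 CD25 libraries. Tbx21 and Bach2 reached 1 RPKM in ISP libraries alone, so the filter took them in through the population in which they were high. Irf4 and Maf reached it in ISP and DP libraries alone, so their results against CD25 cells are a description.

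**Figure D1:**
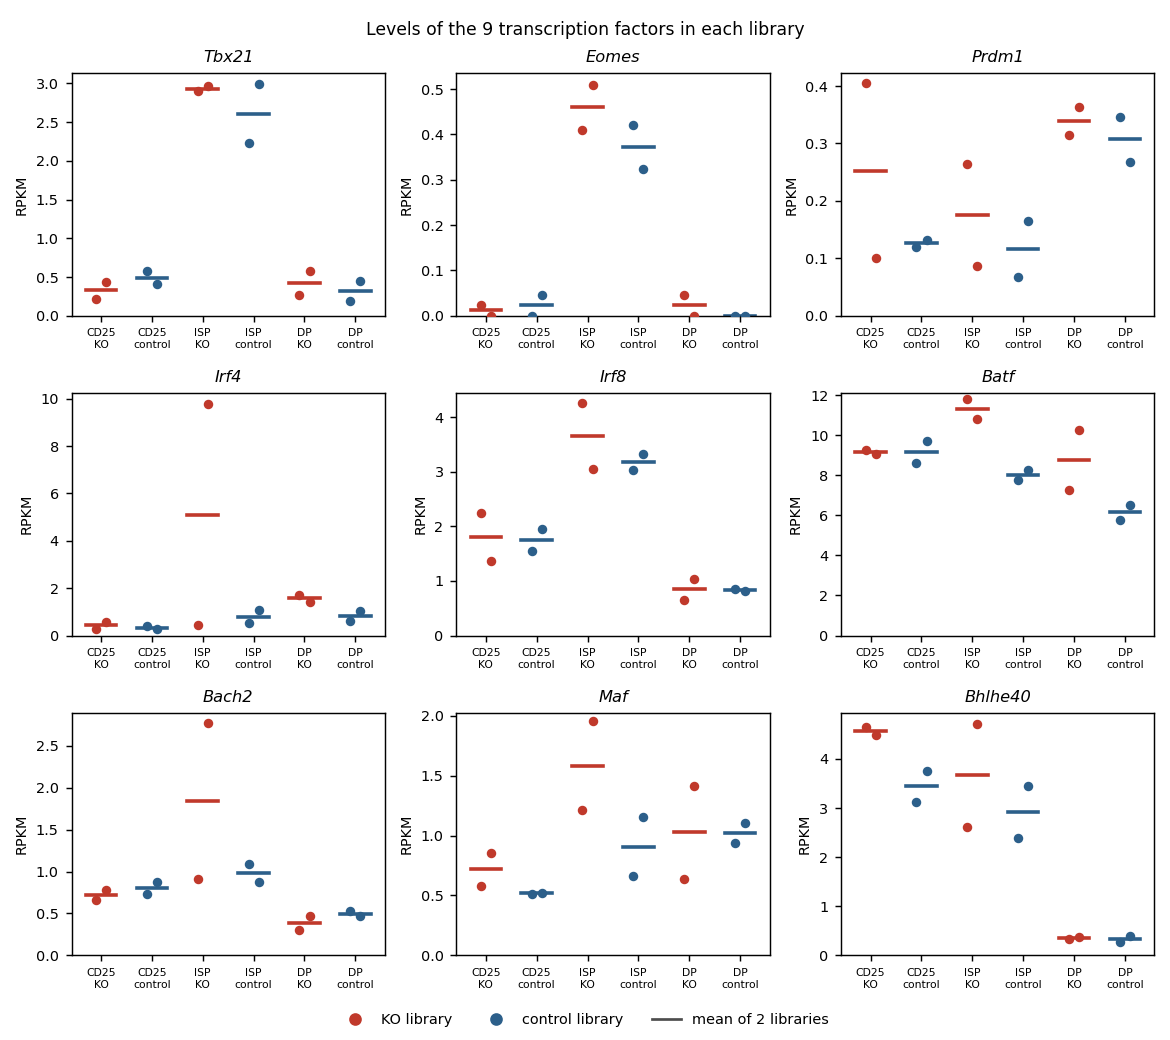
RPKM of each factor (vertical axes, linear, from 0, scaled per gene) in each library of the 6 groups (horizontal axes). Points are libraries and lines the mean of 2. Tbx21 and Eomes are high in the 4 ISP libraries, Bhlhe40 is at 0.275 to 0.394 RPKM in the 4 DP libraries, and Irf4 is at 9.76 RPKM in ISP KO 2.

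The T-box factors were highest in ISP cells, in both genotypes. Tbx21 (chromosome 11, 97098071 to 97115331, GRCm38) was at 0.216 and 0.437 RPKM in KO and 0.573 and 0.404 in control CD25 libraries. In ISP libraries Tbx21 was at 2.90 and 2.97 RPKM in KO and 2.22 and 2.99 in control. In DP libraries Tbx21 was at 0.270 and 0.577 RPKM in KO and 0.186 and 0.449 in control. All 4 ISP libraries lay above all 8 others, while CD25 and DP libraries overlapped. Tbx21 averaged 2.77 ± 0.366 RPKM in ISP and 0.408 ± 0.147 in CD25 cells (SD, n = 4 each), a ratio of 6.79, and the log2 difference was 1.42 (SE 0.13, limma adjusted p = 1.46e-06). It averaged 0.371 ± 0.176 RPKM in DP cells, 7.47-fold below ISP cells (log2 difference -1.46, SE 0.13, limma adjusted p = 7.26e-07). DP and CD25 cells did not differ in Tbx21 beyond the spread of libraries (-0.04, SE 0.13, adjusted p = 0.784).

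Eomes (chromosome 9, 118478212 to 118486132, GRCm38), the other T-box factor of NK and CD8 T cells, was also highest in ISP cells, at far fewer reads. It had 20 and 25 reads in the KO and 22 and 14 reads in the control ISP libraries, or 0.410 and 0.509 against 0.420 and 0.323 RPKM. CD25 libraries held 1 and 0 reads in KO and 0 and 2 in control, and DP libraries held 2 and 0 reads in KO and 0 and 0 in control. The 5 libraries at 0 allow up to 0.0562 to 0.0849 RPKM each (3 reads), which is below every ISP library. Pooled over 4 libraries, 81 reads in ISP against 3 in CD25 cells gave a ratio of 26.1 (95% exact interval 8.61 to 129, counting error only), and 81 against 2 in DP cells a ratio of 34.1 (9.14 to 286). Tested without the filter on low values, Eomes was higher in ISP than in CD25 cells by 0.47 (SE 0.04) and lower in DP than in ISP cells (-0.48, SE 0.04), both called by limma. Exons of Eomes overlap those of an antisense gene, Gm33460, and strand use in counting is not given in the sources used here.

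Neither T-box gene differed between genotypes beyond the spread of libraries. The log2 difference of Tbx21 was 0.13 in ISP (SE 0.18, limma adjusted p = 0.833) and 0.11 in DP cells (SE 0.18, adjusted p = 0.711). Without the filter, Eomes differed by 0.09 in ISP (SE 0.05, adjusted p = 0.574) and by 0.03 in DP cells (SE 0.05, adjusted p = 0.789), and both genes were untested in CD25 cells at the usual filter.

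The promoters of both genes are shown because both rose in ISP cells. They are the 250 bases before the RefSeq start (GRCm38.p6), for Tbx21 chr11:97115332-97115581 on the minus strand and for Eomes chr9:118477939-118478188 on the plus strand. Capitals mark the only match, in either strand, to the 6 motifs searched, an IRF element (GAAA and GAAA with 2 bases of any kind between) in Eomes that 2.98% of all 32851 promoter windows hold. The T-box element AGGTGTGA (1.12% of windows) was in neither, nor were TTCNNNGAA, the AP-1 element TGANTCA, the E-box CACGTG or the BLIMP1 core GTGAAAG.
Tbx21: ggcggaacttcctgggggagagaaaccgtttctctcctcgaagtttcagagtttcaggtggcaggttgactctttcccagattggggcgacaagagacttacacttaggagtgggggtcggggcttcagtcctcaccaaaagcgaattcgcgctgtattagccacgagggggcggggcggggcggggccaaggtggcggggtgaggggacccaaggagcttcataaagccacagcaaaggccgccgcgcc
Eomes: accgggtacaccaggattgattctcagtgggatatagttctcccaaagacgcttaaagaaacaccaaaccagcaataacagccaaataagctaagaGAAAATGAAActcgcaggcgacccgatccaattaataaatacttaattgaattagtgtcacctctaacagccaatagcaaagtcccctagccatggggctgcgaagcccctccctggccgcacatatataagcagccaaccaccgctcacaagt

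NK and innate lymphoid markers moved with the T-box factors. All 6 tested markers of 9 rose in ISP against CD25 cells, where 33.1% of all genes tested were called higher. All 6 fell in DP against ISP cells, where 35.0% were called lower. The NK receptor genes Ncr1, Klrb1c and Klre1 did not pass the filter in the CD25 libraries, so their calls against ISP cells are a description. In each CD25 and DP group 6 of the 9 markers were below 1 RPKM in both libraries, against 3 in each ISP group. Summed over the 9, they reached 192.6 and 189.8 RPKM in KO and 140.3 and 220.1 in control ISP libraries, against 46.9 to 54.5 in KO and 43.1 to 51.1 in control CD25 libraries and 25.3 and 29.4 in KO and 13.1 and 9.69 in control DP libraries. Ncr1, an activating NK receptor, was at 10.3 and 9.47 RPKM in KO and 6.50 and 9.32 in control ISP libraries and at most 0.844 elsewhere. Klrd1, the CD94 chain of NK receptors, was higher in ISP than in CD25 cells by 3.28 (limma adjusted p = 6.4e-08). Klra1, another NK receptor, was at 0 in every ISP library. The part of NK or innate lymphoid cells in the Tbx21 and Eomes values was not tested.

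**Figure D2:**
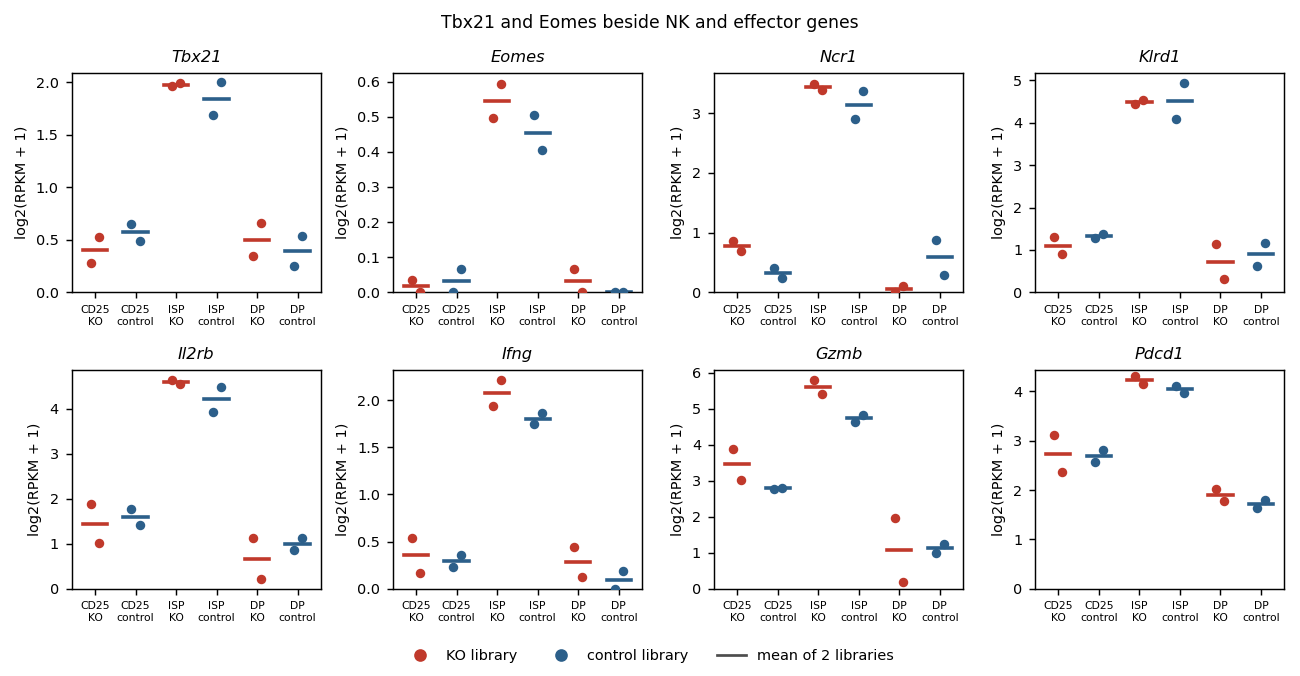
log2(RPKM + 1) (vertical axes, from 0, scaled per gene) of Tbx21 and Eomes, the NK receptor genes Ncr1 and Klrd1, the effector genes Il2rb, Ifng and Gzmb, and Pdcd1, in each library of the 6 groups (horizontal axes). Points are libraries and lines the mean of 2. In all 8 panels the 4 ISP libraries lie above the 8 others.

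Effector and cytokine genes that these factors drive in mature T and NK cells were mostly higher in ISP cells too. Of 20 such genes 16 were tested, and 12 rose and 3 fell in ISP against CD25 cells, with a median change of 1.38 where the median of all genes was 0.01. Of all genes tested, 33.1% were called higher there. In the fit of the CD25 libraries 11 of the 20 were tested. Ifng, Fasl, Ccl3, Ccl4 and Prf1 passed the filter only over the 12 libraries. Counts and medians that include them, and the call of Ifng against CD25 cells, are therefore a description. Il2rb, the shared β chain of the IL-2 and IL-15 receptors, was higher by 2.89 (SE 0.22) and Ifng, which encodes interferon γ, by 1.61 (SE 0.13), with limma adjusted p of 3.35e-07 and 6.13e-07. Il10 went the other way and was lower (-3.38, SE 0.18, adjusted p = 9.45e-09). In DP against ISP cells, where 35.0% of all genes were called lower, 0 of the 16 rose and 14 fell, with a median of -2.32. Among them Gzmb, a granzyme of cytotoxic granules, was at 2.92 and 0.149 RPKM in KO and 1.01 and 1.39 in control DP libraries, and at 55.0 and 41.5 in KO and 23.9 and 27.4 in control ISP libraries (log2 difference -4.06, SE 0.30, limma adjusted p = 1.37e-07). By genotype, Ccl3, a chemokine of activated T and NK cells, was higher in KO ISP cells by 1.24 (SE 0.23, adjusted p = 0.0433), the only gene of 16 that limma called there. Limma called 0 without ISP KO 2, and limma-voom called 2 with all libraries. Gzma (0.74, SE 0.11, adjusted p = 9.94e-04) and Ccl3 (0.75, SE 0.23, adjusted p = 0.0336) were higher in KO DP cells. Limma called 21.9% of all genes tested there.

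Irf8, an interferon regulatory factor of myeloid and B cells that activated T cells also express, had the same order with smaller ratios. Irf8 (chromosome 8, 120736358 to 120756694) was at 2.25 and 1.36 RPKM in KO and 1.54 and 1.95 in control CD25 libraries. The ISP libraries held Irf8 at 4.26 and 3.04 RPKM in KO and 3.04 and 3.32 in control. The DP libraries held it at 0.653 and 1.04 RPKM in KO and 0.858 and 0.811 in control. The 3 populations did not overlap. Means were 1.78 ± 0.398, 3.42 ± 0.579 and 0.841 ± 0.160 RPKM in CD25, ISP and DP cells (SD, n = 4 each). Irf8 was higher in ISP than in CD25 cells by 0.67 (SE 0.13, limma adjusted p = 8.39e-04), lower in DP than in ISP cells (-1.26, SE 0.13, adjusted p = 3.59e-06) and lower in DP than in CD25 cells (-0.59, SE 0.13, adjusted p = 0.00162). KO and control libraries overlapped in all 3 populations, with differences of 0.02 in CD25, 0.14 in ISP and 0.0024 in DP cells (adjusted p = 0.990, 0.821 and 0.999).

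Irf4, the interferon regulatory factor that T cells induce in proportion to receptor signal strength, had values that rested on 1 library. Irf4 (chromosome 13, 30749226 to 30766976) was at 0.274 and 0.588 RPKM in KO and 0.402 and 0.275 in control CD25 libraries. In ISP it was at 0.456 RPKM in KO 1 and 9.76 in KO 2, and at 0.530 and 1.06 in control. Of DP libraries, KO held 1.71 and 1.41 RPKM and control 0.609 and 1.03. ISP KO 2 thus lay far above the 11 others, with 604 reads of Irf4 against 28 in ISP KO 1 and 35 and 58 in the ISP controls, and both KO libraries lay above both control libraries in DP cells. The log2 difference by genotype was 1.16 in ISP (SE 0.63, limma adjusted p = 0.467) and 0.50 in DP cells (SE 0.63, adjusted p = 0.609). Without ISP KO 2 the ISP difference was -0.29 (adjusted p = 0.891) and without ISP KO 1 it was 2.60 (adjusted p = 0.00556). Irf4 differed by 0.94 in ISP against CD25 cells (SE 0.44, adjusted p = 0.0802). Without ISP KO 2 this was 0.22 (adjusted p = 0.263). DP against ISP gave -0.30 (SE 0.44, adjusted p = 0.559), which turned to 0.42 without ISP KO 2 (adjusted p = 0.0402), and DP against CD25 gave 0.64 (SE 0.44, adjusted p = 0.204; 0.00194 without ISP KO 2).

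ISP KO 2 also stood apart in other genes, and those named here were picked after their values were seen. Of 11301 genes, Irf4 had the greatest excess of ISP KO 2 over the highest of the other 3 ISP libraries, 2.38 on the log2 scale. Nr4a1, an orphan nuclear receptor induced by receptor signals, was at 28.2 RPKM in ISP KO 2 and 8.90 to 11.0 in the other ISP libraries. Its relative Nr4a3 had 175 reads there, or 2.36 RPKM, against 0.0136 to 0.0612 RPKM. The chemokine receptor gene Ccr7 was at 22.5 RPKM against 7.00 to 9.25, the cytokine gene Tnf at 4.53 against 1.33 to 1.52, and Malt1, a signalling protease of the NF-κB pathway, at 8.87 against 3.41 to 3.55. Egr2, another receptor-response factor, was at 3.32 RPKM in ISP KO 2 against 0.694 to 0.925, and the inhibitory receptor gene Btla at 3.44 against 0.518 to 0.901. By the library's sequencing name ISP KO 2 would be an ISP control, but it held 35 reads of Gh where both ISP controls had 0. Of the 11301 genes that reached 1 RPKM in 2 or more libraries, 24 were at least 1 log2 unit above all 3 other libraries of the population in ISP KO 2. The other 3 ISP libraries had 10 to 16 such genes, and all 11 other libraries had 10 to 25. This filter drops genes that are high in 1 library alone, and Nr4a3, Egr2 and Btla are not among the 24. The count therefore cannot decide if the library stood apart in the number of such genes. Of the 24, 16 were genes of microRNAs, small nucleolar RNAs or other small RNAs. The part of this library's difference in the genotype comparison cannot be told apart from that of genotype with 2 libraries a group.

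**Figure D3:**
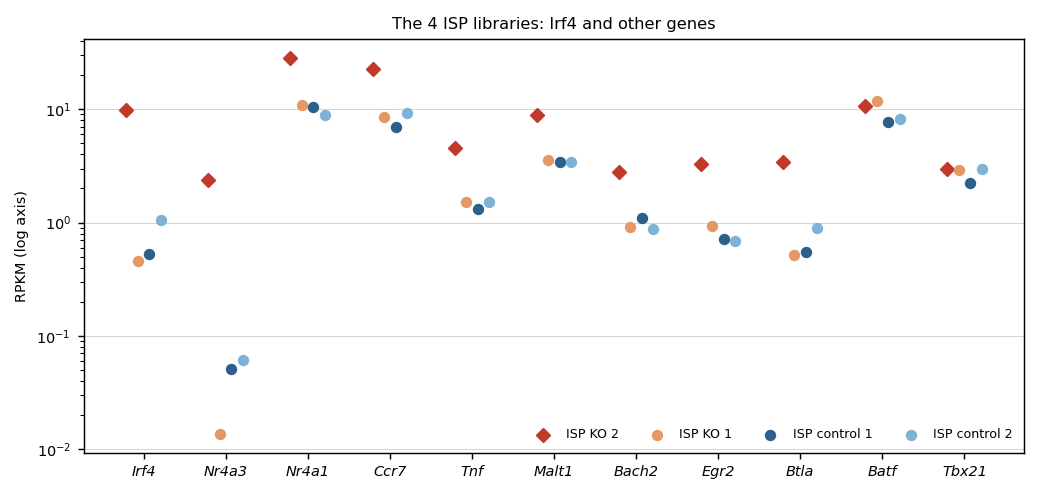
RPKM (vertical axis, logarithmic) of 11 genes (horizontal axis) in the 4 ISP libraries, 1 point per library, the diamond being ISP KO 2. Irf4, Nr4a3, Nr4a1, Ccr7, Tnf, Malt1, Bach2, Egr2 and Btla lie highest in ISP KO 2, while Batf was at 10.8 RPKM there and 11.8 in ISP KO 1, and Tbx21 at 2.97 RPKM there and 2.99 in ISP control 2.

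Bach2 was high in the same library. Bach2 (chromosome 4, 32238804 to 32586108) was at 0.659 and 0.779 RPKM in KO and 0.738 and 0.881 in control CD25 libraries. Among ISP libraries it was at 0.915 RPKM in KO 1 and 2.77 in KO 2, and at 1.09 and 0.878 in control. DP libraries held 0.305 and 0.471 RPKM in KO and 0.526 and 0.472 in control. All 4 DP libraries lay below the 8 others, and CD25 and ISP libraries overlapped. Bach2 was lower in DP than in ISP cells (-0.68, SE 0.18, limma adjusted p = 0.00450), and -0.44 without ISP KO 2 (adjusted p = 0.0103). It differed by 0.39 in ISP against CD25 cells (SE 0.18, adjusted p = 0.0741), which was 0.15 without ISP KO 2 and was called without ISP KO 1 (0.63, adjusted p = 0.00115) and with limma-voom on recovered reads (0.72, adjusted p = 0.0317). The difference of -0.29 in DP against CD25 cells (adjusted p = 0.156) was called without either ISP KO library (adjusted p = 0.0338 and 0.0365). By genotype Bach2 differed by 0.44 in ISP (SE 0.25, adjusted p = 0.498; -0.05 without ISP KO 2) and by -0.11 in DP cells (SE 0.25, adjusted p = 0.790). Its exons overlap those of the antisense gene Bach2os.

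The promoters of the interferon regulatory factors and Bach2 are shown for the element that BCL6 and STAT proteins can bind, TTCNNNGAA, which 7.02% of all promoter windows hold. It matched once in Bach2 (chr4:32417185-32417434, plus strand), at bases -140 to -132 from the start, and at -171 to -163 and -153 to -145 in Irf8 (chr8:120736108-120736357, plus strand). The Irf4 window (chr13:30748983-30749232, plus strand) held none of the 6 motifs. Capitals mark the matches, which are letters in a window and not measured sites. A second RefSeq start of Irf8, with the window chr8:120738389-120738638, held none of the 6 motifs and is not printed. The RefSeq start of Bach2 used for the window lies inside the annotated gene.
Irf4: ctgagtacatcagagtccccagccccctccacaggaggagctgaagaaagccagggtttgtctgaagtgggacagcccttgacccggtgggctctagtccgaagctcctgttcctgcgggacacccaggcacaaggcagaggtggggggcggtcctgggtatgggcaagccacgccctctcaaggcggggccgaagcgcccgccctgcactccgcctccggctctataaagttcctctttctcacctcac
Irf8: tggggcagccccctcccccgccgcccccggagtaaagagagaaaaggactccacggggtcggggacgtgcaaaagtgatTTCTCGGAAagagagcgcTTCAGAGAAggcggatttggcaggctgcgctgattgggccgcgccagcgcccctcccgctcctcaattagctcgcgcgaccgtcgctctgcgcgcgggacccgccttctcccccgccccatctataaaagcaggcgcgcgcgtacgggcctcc
Bach2: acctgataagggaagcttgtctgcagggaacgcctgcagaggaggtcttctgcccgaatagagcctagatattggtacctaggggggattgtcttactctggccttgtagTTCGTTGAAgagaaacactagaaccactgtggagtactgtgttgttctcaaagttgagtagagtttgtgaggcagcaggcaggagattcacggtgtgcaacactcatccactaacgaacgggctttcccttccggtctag

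Relatives of the factors by family changed in both directions. Of 25 relatives 19 were tested, and 5 rose and 4 fell in ISP against CD25 cells, while 9 rose and 6 fell in DP against ISP cells. Of all genes tested, 64.0% and 70.6% were called in these comparisons. In the fit of the CD25 libraries 15 of the 25 were tested, so the count against CD25 cells is a description. Irf9 and Irf7, which carry the type I interferon response, were lower in ISP than in CD25 cells, by differences of -1.24 for Irf9 (SE 0.08, adjusted p = 7.77e-08) and -1.18 for Irf7 (SE 0.12, adjusted p = 3.05e-06). In KO DP cells Irf1 (0.55, SE 0.10, adjusted p = 0.00282), Irf7 (0.86, SE 0.17, adjusted p = 0.00467) and Irf9 (0.48, SE 0.12, adjusted p = 0.0133) were higher, and Prdm10 was lower. In all, 3 of the 19 were called higher and 3 lower there, beside 21.9% of all genes called. In KO ISP and CD25 cells limma called 0 relatives (6 and 5 at an unadjusted p under 0.05) and limma-voom 1 in each, and Irf7 differed by 0.74 in ISP (SE 0.17, adjusted p = 0.0879) and 0.64 in CD25 cells (SE 0.09, adjusted p = 0.119).

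Batf was the factor with the highest level and the only factor called between genotypes. Batf (chromosome 12, 85686669 to 85709087) was at 9.24 and 9.05 RPKM in KO and 8.63 and 9.70 in control CD25 libraries, which overlapped. In ISP it was at 11.8 and 10.8 RPKM in KO and 7.77 and 8.25 in control, and in DP at 7.25 and 10.2 RPKM in KO and 5.78 and 6.52 in control. In both stimulated populations both KO libraries lay above both control libraries. Batf averaged 11.3 ± 0.707 RPKM in KO and 8.01 ± 0.342 in control ISP cells, and 8.74 ± 2.11 in KO and 6.15 ± 0.524 in control DP cells (SD, n = 2 each). Batf was higher in KO DP cells by 0.43 (SE 0.13, limma adjusted p = 0.0374). In ISP cells the difference was 0.45 (SE 0.13, adjusted p = 0.157) and in CD25 cells -0.0014 (SE 0.10, adjusted p = 0.999). The DP call was lost in 9 of the alternatives that keep the titles, with adjusted p between 0.0521 and 0.326: without DP KO 2, either DP control or either CD25 KO library, without the filter or the intensity trend, with limma-voom on recovered reads, and with the DP libraries fitted alone. The values rest on 76 and 88 reads in KO and 55 and 72 reads in control DP libraries.

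Between populations Batf was lowest in DP cells. It was lower in DP than in ISP cells (-0.34, SE 0.09, limma adjusted p = 0.00582) and lower in DP than in CD25 cells (-0.29, SE 0.09, adjusted p = 0.0135), and ISP and CD25 cells differed by 0.05 (adjusted p = 0.642). The call of DP against CD25 was lost without DP KO 1, DP control 1 or CD25 control 2 and with limma-voom (adjusted p between 0.0508 and 0.0601). The promoter of Batf is shown because Batf was called between genotypes. It lies at chr12:85686470-85686719 on the plus strand and held 1 match, in capitals, to the BLIMP1 core GTGAAAG on the other strand, which 3.57% of windows hold.
Batf: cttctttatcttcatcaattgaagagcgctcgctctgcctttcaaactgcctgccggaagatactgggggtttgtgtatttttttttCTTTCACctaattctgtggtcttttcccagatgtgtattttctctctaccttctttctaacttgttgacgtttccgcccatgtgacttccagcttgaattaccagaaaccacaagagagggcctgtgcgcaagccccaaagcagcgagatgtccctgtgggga

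A few markers of myeloid and innate cells differed between KO and control cells, most of them in DP cells. Of 7 tested dendritic and myeloid markers of 14, Lyz2 (2.51, limma adjusted p = 0.0011) and Csf1r (0.84, adjusted p = 0.026) were higher and Ccr9, which thymocytes also express, lower (-0.67, adjusted p = 0.0088) in KO DP cells. Limma called 21.9% of all genes tested in KO DP cells. In KO ISP cells limma called Lyz2 alone (2.55, adjusted p = 0.019) and 0 without ISP KO 2, and limma-voom called 2 markers higher and 1 lower. In KO CD25 cells, where Batf differed by -0.0014, Lyz2 differed by 0.83 (adjusted p = 0.221) and Csf1r by 0.43 (adjusted p = 0.501). Lyz2 was at 43.8 and 65.2 RPKM in KO and 13.0 and 5.50 in control DP libraries. Summed over the 14, these markers were at 323 and 281 RPKM in KO and 378 and 391 in control DP libraries, and at 115 and 124 in KO and 106 and 128 in control ISP libraries. The sums include Ccr9, which was higher in DP than in ISP cells by 1.87 (SE 0.10) and lower in KO DP cells. They therefore do not follow the myeloid genes alone. Clec9a, which defines cross-presenting dendritic cells, was at 0 in all 12 libraries. Of 6 tested NK and innate lymphoid markers, the adaptor genes Tyrobp (1.30, adjusted p = 3.1e-04) and Fcer1g (1.27, adjusted p = 0.0046) were higher in KO DP cells by limma. The receptor genes differed there by -0.54 for Ncr1 (adjusted p = 0.0836), -0.17 for Klrd1 (adjusted p = 0.729) and -0.04 for Klrb1c (adjusted p = 0.933), and limma-voom called 2 markers higher and 1 lower. In KO ISP cells 0 of the 6 were called by limma (0 at an unadjusted p under 0.05) or limma-voom. Spi1, the myeloid factor PU.1 that pairs with IRF4 and IRF8, was at 1.04 and 1.10 RPKM in KO and 0.143 and 0.430 in control DP libraries (0.70, SE 0.15, adjusted p = 0.00722). Mast cell markers summed to 29.6 and 34.5 RPKM in KO and 13.1 and 17.3 in control ISP libraries, with 0 of 2 tested markers called by limma (1 at an unadjusted p under 0.05) and 1 by limma-voom. Pax5 and Ms4a1, defining genes of B cells, were at 0 and at most 0.0446 RPKM. The 8 B lineage markers summed to 51.9 and 59.1 RPKM in KO and 64.4 and 53.0 in control DP libraries. The ISP sums were 23.4 and 26.5 RPKM in KO and 28.8 and 26.7 in control. For CD25 they were 68.6 and 69.8 RPKM in KO and 65.1 and 69.1 in control. Limma called 0 of the 3 tested (Cd79b, Vpreb1 and Igll1) by genotype in any population. Cd79b and Vpreb1 rose in DP against ISP cells, by 1.07 and 1.03, and Igll1 differed by -0.05. The part of these cells in the Batf values was not tested.

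Partners of BATF and IRF4 changed in both directions as well. Of 13 partners 11 were tested, and 4 rose and 6 fell in ISP against CD25 cells, where 64.0% of all genes tested were called. The AP-1 genes Jund (1.39, SE 0.07, limma adjusted p = 1.07e-08), Fos (1.98, SE 0.15) and Junb (1.40, SE 0.17) rose and Jun and Spib fell. In DP against ISP cells 6 rose and 2 fell, beside 70.6% of all genes called. Jund rose by 0.95 (SE 0.07, limma adjusted p = 1.87e-07). In KO DP cells Spi1 was higher, and Stat3 (-0.40, SE 0.07, adjusted p = 0.00226) and Nfatc2 (-0.59, SE 0.14, adjusted p = 0.0128) were lower. These were 1 call higher and 2 lower of 11, beside 21.9% of all genes called there. In KO ISP and CD25 cells 0 of 11 were called by limma (1 and 3 at an unadjusted p under 0.05) or limma-voom.

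Maf rose in ISP cells on a narrow margin. Maf (chromosome 8, 115682942 to 115707794) was at 0.579 and 0.858 RPKM in KO and 0.516 and 0.519 in control CD25 libraries. ISP libraries held 1.21 and 1.95 RPKM in KO and 0.662 and 1.15 in control, and DP libraries 0.639 and 1.41 in KO and 0.939 and 1.10 in control. Both KO libraries lay above both control libraries in CD25 and ISP cells, and the genotypes overlapped in DP cells. Every CD25 library was below 1 RPKM, and the filter took Maf in through ISP and DP libraries. The comparisons of Maf with CD25 cells are therefore a description. Maf was higher in ISP than in CD25 cells by 0.45 (SE 0.16, limma adjusted p = 0.0237), and the call was lost without any 1 of 5 libraries (CD25 KO 1, CD25 control 1, CD25 control 2, ISP KO 2 or ISP control 2; adjusted p between 0.0505 and 0.0993). DP cells lay between, at 1.02 ± 0.323 RPKM against 0.618 ± 0.162 in CD25 and 1.25 ± 0.533 in ISP cells (SD, n = 4 each), and differed from neither (0.31, adjusted p = 0.0840, against CD25; -0.13, adjusted p = 0.456, against ISP). By genotype Maf differed by 0.43 in ISP (SE 0.22, adjusted p = 0.428) and -0.02 in DP cells (SE 0.22, adjusted p = 0.965). An antisense gene, Gm15655, overlaps its exons.

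On the log2(RPKM + 1) scale Bhlhe40 had the greatest difference of the 7 tested factors, a drop in DP cells. Bhlhe40 (chromosome 6, 108660629 to 108666925) was at 4.66 and 4.49 RPKM in KO and 3.13 and 3.76 in control CD25 libraries. The ISP libraries held it at 2.62 and 4.72 RPKM in KO and 2.39 and 3.44 in control, and the DP libraries at 0.332 and 0.372 in KO and 0.275 and 0.394 in control. All 4 DP libraries lay below all 8 others, with 9 to 15 reads each against 105 to 194. The means were 4.01 ± 0.703, 3.29 ± 1.05 and 0.343 ± 0.0524 RPKM in CD25, ISP and DP cells (SD, n = 4 each). DP cells were 9.59-fold below ISP cells (-1.65, SE 0.14, limma adjusted p = 6.03e-07) and 11.7-fold below CD25 cells (-1.89, SE 0.14, adjusted p = 1.22e-07). ISP and CD25 cells did not differ beyond the spread of libraries (-0.24, SE 0.14, adjusted p = 0.158), and the difference was called without ISP KO 2 (-0.41, adjusted p = 0.0163). Both KO libraries lay above both control libraries in CD25 cells, by 0.33 (SE 0.13), with an unadjusted p of 0.0356 and an adjusted p of 0.501 by limma over all genes. The differences were 0.23 in ISP (adjusted p = 0.702) and 0.02 in DP cells (adjusted p = 0.963). The antisense gene 0610040F04Rik overlaps exons of Bhlhe40. Its relative Bhlhe41 was at 0 to 0.124 RPKM throughout.

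Prdm1, the antagonist of BCL6 in B and T cells, was close to the detection limit in every library. Prdm1 (chromosome 10, 44437177 to 44528501) was at 0.405 and 0.10 RPKM in KO and 0.120 and 0.132 in control CD25 libraries. The ISP libraries held 0.264 and 0.0873 RPKM in KO and 0.0681 and 0.165 in control, and the DP libraries 0.315 and 0.364 in KO and 0.347 and 0.267 in control. These values rest on 5 to 23 reads a library, and KO and control libraries overlapped in all 3 populations. Without the filter, the log2 differences by genotype were 0.14 in CD25 (SE 0.12, limma adjusted p = 0.825), 0.07 in ISP (SE 0.11, adjusted p = 0.917) and 0.04 in DP cells (SE 0.11, adjusted p = 0.965). DP libraries lay above ISP libraries, at 0.267 to 0.364 against 0.0681 to 0.264 RPKM, with a difference of 0.21 (SE 0.08, adjusted p = 0.0591).

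The calls of the factors between populations were higher in ISP cells and lower in DP cells. In ISP against CD25 cells 3 of the 7 tested (Tbx21, Irf8 and Maf) were called, all higher, where 64.0% of all genes tested were called and 33.1% were called higher. In DP against ISP cells 5 of 7 (Tbx21, Irf8, Batf, Bach2 and Bhlhe40) were called, all lower, where 70.6% of all genes were called and 35.0% called lower. DP against CD25 cells gave 3 of 7 (Batf, Irf8 and Bhlhe40), all lower, beside 75.7% called and 38.4% called lower. Tbx21 and Bach2 had entered the tests through ISP libraries alone, so their calls against ISP cells are a description. Irf4 and Maf had entered through ISP and DP libraries alone, so their results against CD25 cells are a description too. Of the 3 factors that also passed the filter in CD25 libraries (Batf, Irf8 and Bhlhe40), Irf8 alone was called in ISP against CD25 cells. All 3 were called in DP against ISP cells, where Irf4 and Maf were not. Without ISP KO 1, 5 factors were called in ISP against CD25 cells and 5 in DP against CD25 cells, and without ISP KO 2 also 5 in DP against CD25 cells. Over both genotypes, ISP was the population with the highest mean for Tbx21, Eomes, Irf8, Batf, Bach2 and Maf and, through ISP KO 2, for Irf4, CD25 for Bhlhe40 and DP for Prdm1. In control libraries alone, the highest mean of Batf was in CD25 and that of Maf in DP cells, so their ISP peak rests on the KO libraries. With groups by sequencing library name, 0 of the 7 factors and 0 genes in all were called in DP against ISP. That grouping sets the stimulated libraries titled replicate 1 against those titled replicate 2, so it does not compare the titled populations. At a filter of 5 RPKM Batf alone was left to test.

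**Figure D4:**
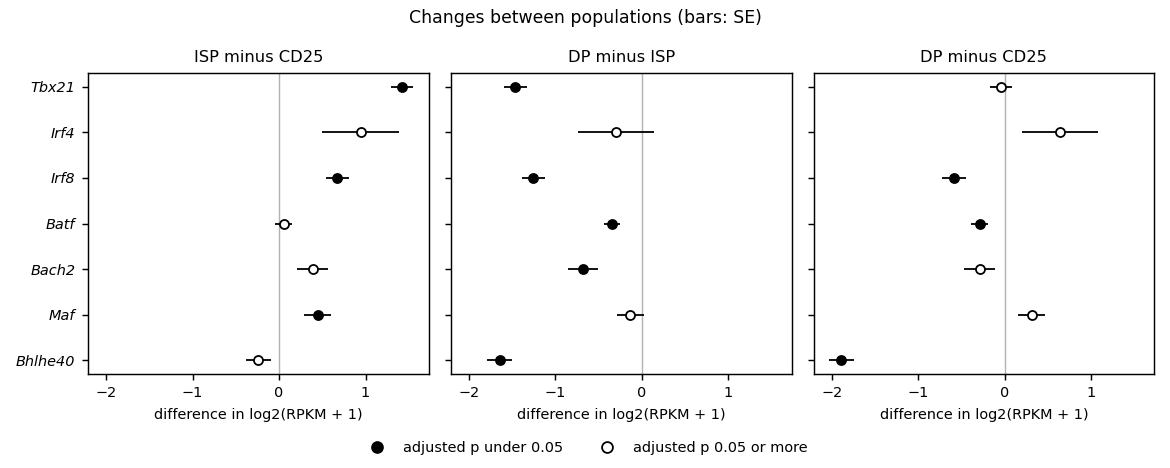
Difference in log2(RPKM + 1) (horizontal axes) of the 7 tested factors (rows) between populations, from left to right ISP minus CD25, DP minus ISP and DP minus CD25. Bars are 1 SE, and filled points have a limma adjusted p under 0.05. Tbx21 lies at 1.42 and then -1.46, and Bhlhe40 at -0.24, -1.65 and -1.89.

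Between KO and control cells most factors differed by less than the spread of the libraries. In CD25 cells 0 of the 3 tested factors were called between KO and control, beside 0.0188% of all genes, with 1 (Bhlhe40) at an unadjusted p under 0.05. In ISP cells 0 of 7 were called, beside 0.354% of all genes, with 1 (Batf) at an unadjusted p under 0.05. Limma-voom on recovered reads also called 0 in CD25, ISP and DP cells. In DP cells 1 of 7 was called, beside 21.9% of all genes and 14.1% called higher. Over all 9 factors, both KO libraries lay above both control libraries for Maf and Bhlhe40 in CD25 cells, where 21.8% of tested genes did so, for Batf and Maf in ISP cells (21.1% of genes), and for Irf4 and Batf in DP cells (32.0% of genes). Bach2 alone lay below in both KO libraries in DP cells (30.3% of genes). The step from ISP to DP cells was called between genotypes by limma for 0 of 7 factors (0 at an unadjusted p under 0.05), beside 4.19% of all genes, and the step from CD25 to ISP cells for 0 of 7 (1, Batf, at an unadjusted p under 0.05), beside 0.0% of all genes, and limma-voom called 0 in each. The greatest step differences were those of Irf4 (-0.65, SE 0.88, limma adjusted p = 0.719, and 1.07, SE 0.88, adjusted p = 0.740). Without ISP KO 1, Irf4 was called in both steps (-2.10, adjusted p = 0.0282, and 2.51, adjusted p = 0.0417).

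**Figure D5:**
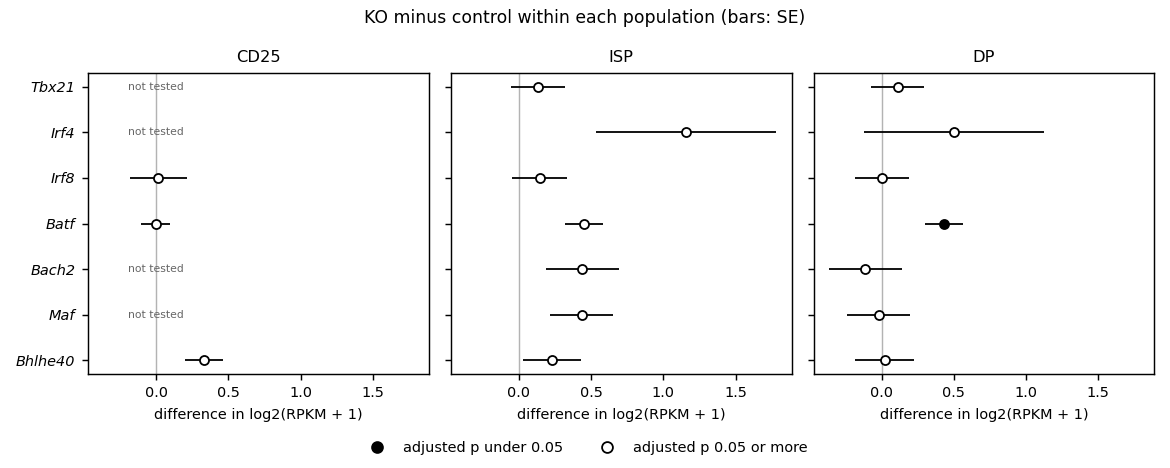
KO minus control difference in log2(RPKM + 1) (horizontal axes) of 7 factors (rows) in CD25, ISP and DP cells, with bars of 1 SE. The filled point is Batf in DP cells (0.43, limma adjusted p = 0.0374), and 4 factors were not tested in CD25 cells because they were below 1 RPKM there.

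Other factors of effector, memory and exhausted T cells mostly rose in ISP cells. Of 28 genes 23 were tested, with 18 rising and 4 falling in ISP against CD25 cells, and 9 rising and 12 falling in DP against ISP cells. Of all genes tested, 64.0% were called in ISP against CD25 cells (33.1% higher) and 70.6% in DP against ISP cells. In the fit of the CD25 libraries 18 of the 28 were tested. Hopx, Nr4a1, Nr4a2, Rora and Tox2 passed the filter only over the 12 libraries and are among those that rose. The count against CD25 cells is therefore a description. Id3, an inhibitor of E proteins, was higher in ISP cells by 4.96 (SE 0.10, limma adjusted p = 2.78e-12), and Tcf7, a factor of early and memory T cells, by 1.60 (SE 0.04, adjusted p = 5.3e-11). In KO DP cells Bcl6 (0.47, SE 0.14, adjusted p = 0.0319) and Runx1 (0.29, SE 0.08, adjusted p = 0.0222) were higher. Stat4 (-0.42, SE 0.07, adjusted p = 0.00241), Tcf7 (-0.30, SE 0.06, adjusted p = 0.00658), Klf2 (-0.98, SE 0.23, adjusted p = 0.0110), Tox (-0.30, SE 0.08, adjusted p = 0.0228), a factor of exhausted T cells, and Ikzf3 were lower there. These were 2 calls higher and 5 lower of 23, beside 21.9% of all genes called in KO DP cells. In KO ISP cells Bcl6 was the only gene of the 23 that limma called (0.84, SE 0.14, adjusted p = 0.0249), and limma called 0 without ISP KO 2. Limma-voom called 1 higher and 1 lower there, and Tox2, a relative of Tox, differed by -0.98 (SE 0.19, limma adjusted p = 0.0567). In KO CD25 cells limma and limma-voom called 0 of 18 tested, with 3 at an unadjusted p under 0.05.

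Inhibitory receptor genes, which exhausted T cells keep high, were lowest in DP cells. Of 10 such genes 5 were tested. Pdcd1, which encodes PD-1, was at 18.8 and 16.7 RPKM in KO and 16.3 and 14.7 in control ISP libraries, against 7.70 and 4.12 in KO and 4.94 and 6.02 in control CD25 libraries and 3.08 and 2.45 in KO and 2.12 and 2.46 in control DP libraries. It was higher in ISP than in CD25 cells by 1.42 (SE 0.14, limma adjusted p = 3.01e-06) and lower in DP than in ISP cells (-2.32, SE 0.14, adjusted p = 2.5e-08). Ctla4 was lower in ISP than in CD25 cells (-2.21, SE 0.11, adjusted p = 9.17e-09) and lower again in DP than in ISP cells (-1.83, SE 0.11). All 5 fell in DP against ISP cells, 2 rose and 2 fell in ISP against CD25 cells, and 0 were called by genotype in any population by limma (0 at an unadjusted p under 0.05) or limma-voom. Among all genes tested, 35.0% were called lower in DP against ISP cells, and 64.0% were called in ISP against CD25 cells.

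Some genes followed single factors closely over the 12 libraries. As a description, among 7822 genes averaging at least 5 RPKM, Pearson's r of log2(RPKM + 1) was highest with Tbx21 for Gimap4 (0.980), Bax (0.975) and Gars (0.973), with Irf8 for Sms (0.972), Fam195a (0.971) and Pdcd1 (0.970), and with Bhlhe40 for Ampd2 (0.982), Wdr43 and Vac14. Batf was closest to Ap2a2 (0.952), Ctss (0.945) and Tmem70 (0.919). Ctss, the protease cathepsin S of antigen-presenting cells, was at 2.85 and 9.74 RPKM in KO and 1.61 and 1.75 in control DP libraries, and DP KO 2 was also the DP library with the highest Batf. The closest genes to Irf4 (Txndc9, 0.880) and Maf (D17Wsu92e, 0.875) had lower r. The 12 points fall into 3 populations and share depth and scaling, so r is given with no p.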

How the data were processed

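The authors deposited 1 table of RPKM per gene for 12 libraries of sorted thymocytes. Reads were aligned with BWA to GRCm38, per the submitters' processing notes. Not given in the sources used here are the counter, annotation, strand use, versions and filters. Within a library each gene's RPKM is a whole number of equal steps, which gave back the reads (169558 values above 0, 100% whole within 0.02 reads), summing to 96.4% to 101.9% of the denominator each column implies. Intervals (95%) and floors (3 reads) hold for counting error alone.

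Differences were fitted with limma (version 3.58.1, R 4.3.3, trended variance) on the log2 of RPKM plus a pseudocount of 1. A gene was kept where 2 or more libraries of the fit had 1 RPKM or more. This scale understates the change of low genes. KO against control in CD25 cells used the 4 CD25 libraries (10634 genes). The other comparisons used all 12 libraries as 6 groups (11301 genes). Population differences are means over both genotypes. 4 rows with duplicate date-like names were left out. The procedure was tested on simulated data. The alternatives were another pseudocount or filter, a replicate block, no trend, limma-voom, other libraries in the fit, groups by sequencing library name, and leaving out each library. Samples were grouped by title.

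The factors, marker lists, motifs and rules were chosen with earlier results of these data known. Named genes are the 9 factors, Bcl6, up to 6 genes per list with the smallest p in a comparison, the 3 genes (averaging 5 RPKM or more, predicted genes left out) most correlated with each factor that averaged 1 RPKM in a group, and genes said to be named after their values were seen. Some genes that the rule names are not reported here. Il2ra, Cd4, Ddx3y and marker genes are given as checks of the libraries. Positions are from GENCODE M21. Promoters are from RefSeq (GRCm38.p6), where 7 of 9 factors matched, and motifs were searched in both strands of the 250 bases before the start. Tables used pandas 2.3.3 and numpy 2.4.6 under Python 3.11.15, exact intervals scipy 1.17.1, and plots matplotlib 3.10.9.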

Additional observations from a re-analysis of the deposited data

Results flagged for a closer look

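In 5 of 27 sets of 4 libraries (9 factors in 3 populations) the highest or lowest library stood apart from the other 3 by more of the whole range than Dixon's 95% critical value, which chance gives in about 1 in 20 sets. Irf4 in ISP KO 2 was at 9.76 RPKM, against 0.456 to 1.06 in the other ISP libraries. Bach2 in the same library was at 2.77 RPKM, against 0.878 to 1.09. Tbx21 in ISP control 1 was at 2.22 RPKM, below the 2.90 to 2.99 of the other ISP libraries. Prdm1 in CD25 KO 1 was at 0.405 RPKM, with 23 reads, against 0.10 to 0.132 in the other CD25 libraries. Eomes in DP KO 1 was at 0.0464 RPKM, with 2 reads, where the other 3 DP libraries had 0, so any read in it would have set it apart, and it bears on no comparison with chance.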

How the results depend on the processing

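Without the grouping by sequencing library name, 907 of 940 values of single factors kept their side of the threshold (44 of them, uncalled, changed sign), 18 lost a call, 14 gained one and 1 reversed, Irf4 in DP against ISP (0.42 without ISP KO 2, with a range of -1.02 to 0.42 over the libraries left out). By library name, the stimulated KO groups hold libraries titled DP and the stimulated control groups libraries titled ISP. KO minus control by name is thus DP minus ISP by title, and DP against ISP by name is replicate 1 against replicate 2. Its signs are therefore no reversal of a genotype difference. Grouped so, KO minus control changed sign in ISP for Tbx21 (-1.40), Bach2 (-0.86), Bhlhe40 (-1.87) and Irf8 (-1.12) and in DP for Tbx21 (-1.53), Batf (-0.50), Bhlhe40 (-1.43) and Irf8 (-1.40). Signs also changed for Irf8 in DP against ISP (0.0036), Tbx21 (0.57) and Irf8 (0.045) in DP against CD25, and Tbx21 (-1.23) and Irf8 (-1.14) in the CD25 to ISP step. By library name the factors called were 4 (ISP KO), 3 (DP KO), 0 (DP against ISP) and 3 (CD25 to ISP step), and the genes called 5501, 5621, 0 and 3371, and 0 in the ISP to DP step.

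Factors called between KO and control were 0 in DP without the filter, without the trend, with limma-voom and with the DP libraries alone. At 5 RPKM they were 0 in ISP against CD25, 1 in DP against ISP and 1 in DP against CD25. Leaving out a library gave 0 to 1 in ISP KO, 0 to 1 in DP KO, 2 to 5 in ISP against CD25, 2 to 5 in DP against CD25 and 0 to 1 in each step. Genes called in CD25 KO were 2, but 1 with a pseudocount of 0.1 or no filter, 12 without the trend, 14 with limma-voom, 9 with 12 libraries and 2 to 34 leaving out a library. In ISP KO 40 became 8 without the filter, 67 at 5 RPKM, 6 without the trend, 181 with limma-voom and 6 to 56 leaving out a library. DP KO gave 824 to 2596 leaving out a library. The ISP to DP step gave 185 without the filter, 25 without the trend and 64 to 1017 leaving out a library. The CD25 to ISP step gave 1 with a pseudocount of 0.1 or no trend, 2 without the filter, 19 with limma-voom and 0 to 3 leaving out a library. The cause was not tested.

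Replicate numbers did not pair the samples: replicate differences of the groups correlated between -0.07 and 0.12. With a replicate block, Maf was called in DP against CD25 (adjusted p = 0.0361), so 4 factors were called there in place of 3, 1 gene was called in the CD25 to ISP step in place of 0, and no other call of a factor changed. Depth limits Eomes (at most 25 reads a library) and Prdm1 (at most 23), and the part of depth in the other SEs was not tested.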
